A study of Mus musculus with 18 samples.

Results

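Induced fibroblasts and induced blood cells were compared in 8 RNA-sequencing libraries, chosen by their titles from the 18 libraries of the series. They were the fibroblast libraries after 2 and 4 days with doxycycline (Fib_2D, Fib_4D) and 6 blood libraries at the same times. Blood cells were of 3 kinds, each with a 2D and a 4D library: haematopoietic stem cells with long-term (LT-HSC) or short-term (ST-HSC) repopulating capacity, and progenitors of the myeloid lineage (MP). All cells, uncultured ones included, came from C57BL/6 mice that had been raised from iPS cells alone. In their genome doxycycline switches on Klf4, c-Myc (gene Myc), Sox2 and Oct4 (gene Pou5f1). The other libraries used here were uncultured cells of each type (Fib_0, LT-HSC_0, ST-HSC_0, MP_0) and blood cells cultured without doxycycline (2N, 4N). No fibroblast library cultured without doxycycline was analysed here, so in fibroblasts culture and the factors cannot be told apart. Each condition was a single library, and the labels do not say how many mice stood behind it. The p-values therefore rest on how much single libraries differ once the block of each test is taken out, not on animals. The block was day in the test between lineages and cell type in the test of change with induction.

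The lineages also differed in how RNA was turned into libraries. A blood library started from 25 hand-picked cells, whose RNA was copied from its poly(A) end and amplified in 20 and then 9 cycles of PCR. Fibroblast RNA was extracted in bulk, and its messenger RNA was purified and fragmented before copying. Cell lineage and library method cannot be told apart in any difference given here. Expression is in FPKM, fragments scaled to transcript length and to the library total, and the sequencing depth is unknown. The summed FPKM was 561522 and 572069 in the induced fibroblast libraries and 707877 to 767866 in the induced blood libraries. Genes at FPKM 1 or more numbered 11833 and 12425 in the fibroblasts and 10758 to 11365 in the blood cells. A value of 0 may be a failed estimate, so such genes are described as listed at 0, and no fold is given against a group in which every library is listed at 0. Medians of a list, which are over differences of log2(FPKM + 1), do hold such genes.

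Reprogramming factors are known to silence genes that give a cell its identity and to open genes that a pluripotent cell uses. Fibroblast identity rests on secreted matrix, contractile fibres and mesenchymal transcription factors. Blood identity rests on leukocyte surface and signalling proteins and on factors such as Tal1 and Ikzf1. Genes for protein synthesis, energy supply and cell division are used by both lineages.

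The labelled cell types were checked against 10 markers each. Fibroblast markers (collagens, Pdgfra, Pdgfrb, Thy1, Dcn, Lum, Twist1, Prrx1) summed to 11403 FPKM in Fib_0, 665 in Fib_2D and 1845 in Fib_4D. In the induced blood libraries they summed to 0.928 to 33.4. Blood markers (Ptprc, Cd53, Coro1a, Lcp1, Laptm5, Runx1, Sfpi1, Kit, Cd34, Myb) summed to 3176 in ST-HSC_2D and 2506 in ST-HSC_4D, within the 2346 to 3436 of uncultured blood. They summed to 322 in LT-HSC_2D, 319 in MP_2D, 37.7 in LT-HSC_4D and 12.6 in MP_4D. The last 2 libraries were near the induced fibroblasts, at 11.3 and 12.6. Of the 10 blood markers, 4 were listed at 0 in LT-HSC_4D and 5 in MP_4D, so those libraries largely lacked the markers of their labelled type. In these pools, fewer cells of a type and less RNA per cell cannot be told apart. Of the 7 macrophage markers 4 were listed at 0 in each induced fibroblast library, and the sum was 3.58 and 3.75. Endothelial markers summed to 1.03 and 2.19 there.

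**Figure D1:**
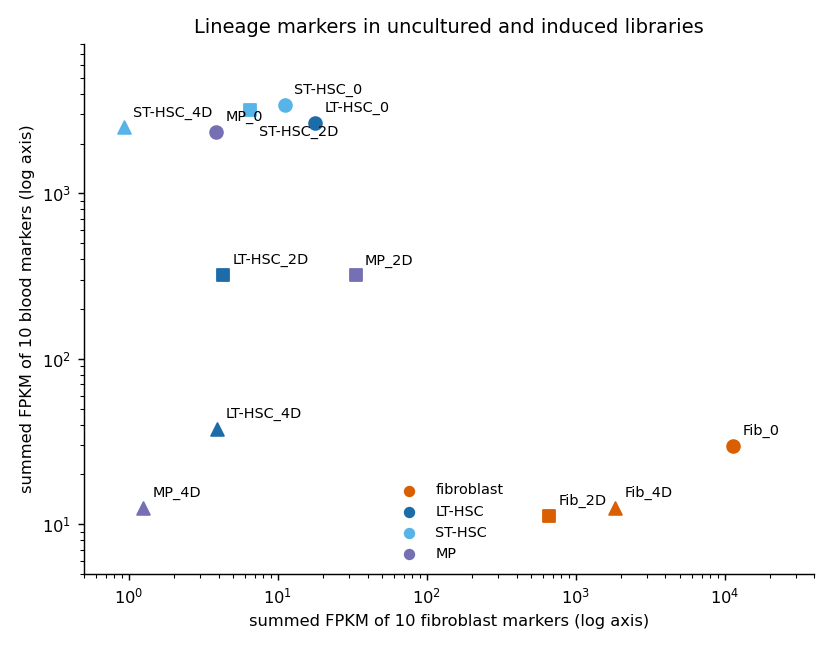
Summed FPKM of 10 fibroblast markers (x, log axis) against 10 blood markers (y, log axis), 1 point a library, circles uncultured, squares induced day 2 and triangles induced day 4. On the blood marker axis both ST-HSC induced libraries sit among uncultured blood, while LT-HSC_4D and MP_4D lie at 37.7 and 12.6 FPKM of blood markers.

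Genes that became active in both lineages were searched for directly, with a rule chosen after the values were seen. At FPKM 10 or more in all 8 induced libraries and under 5 in all 4 uncultured libraries, 8 genes were found: Ctnnal1, Fetub, Mboat1, Mfsd2a, Mobp, Sox2, Sox21 and Stmn2. Of these, 3 were under 1 in every uncultured library. Since the values chose them, their levels are a description. Sox2 is 1 of the 4 factors that doxycycline switches on. Reads from its inserted copy and from the mouse's own gene cannot be told apart. Mobp encodes a protein of oligodendrocyte myelin, Stmn2 a neuronal regulator of microtubules, Sox21 a transcription factor related to Sox2, and Fetub a secreted protease inhibitor of the cystatin family. Mfsd2a transports lysophospholipids, Mboat1 is a lysophospholipid acyltransferase and Ctnnal1 is related to alpha-catenin.

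Mobp was listed at 0 in all 4 uncultured libraries and all 6 blood libraries cultured without doxycycline. It stood at 67.2 and 81.7 FPKM in Fib_2D and Fib_4D. In blood it was at 61.8 in LT-HSC_2D, 85.8 in ST-HSC_2D, 150 in MP_2D, 114 in LT-HSC_4D, 114 in ST-HSC_4D and 216 in MP_4D. The fibroblast values lay inside the blood range. Fetub was at 105 and 325 in induced fibroblasts and at 22.6 to 1833 in induced blood, with the top value in MP_2D. Uncultured cells gave Fetub at most 3.55. Stmn2 was at 110 and 159 in fibroblasts and at 105 to 1267 in blood, with ST-HSC_4D alone among the blood libraries below the fibroblasts. Sox21 was at 12.7 and 10.99 in fibroblasts and at 42.5 to 154 in blood, so the groups did not overlap, and it was listed at 0 in every uncultured library. Mboat1 was at 10.9 to 22.1 in all 8 induced libraries but also at 7.14 to 23.1 in blood cultured without doxycycline. Its levels in blood with and without doxycycline thus overlapped. Sphk1, sphingosine kinase, went the other way: 14.9 in Fib_0 and 35.3 to 157 in uncultured blood, and under 1 in all 8 induced libraries. It was also listed at 0 in all 6 blood libraries cultured without doxycycline.

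**Figure D2:**
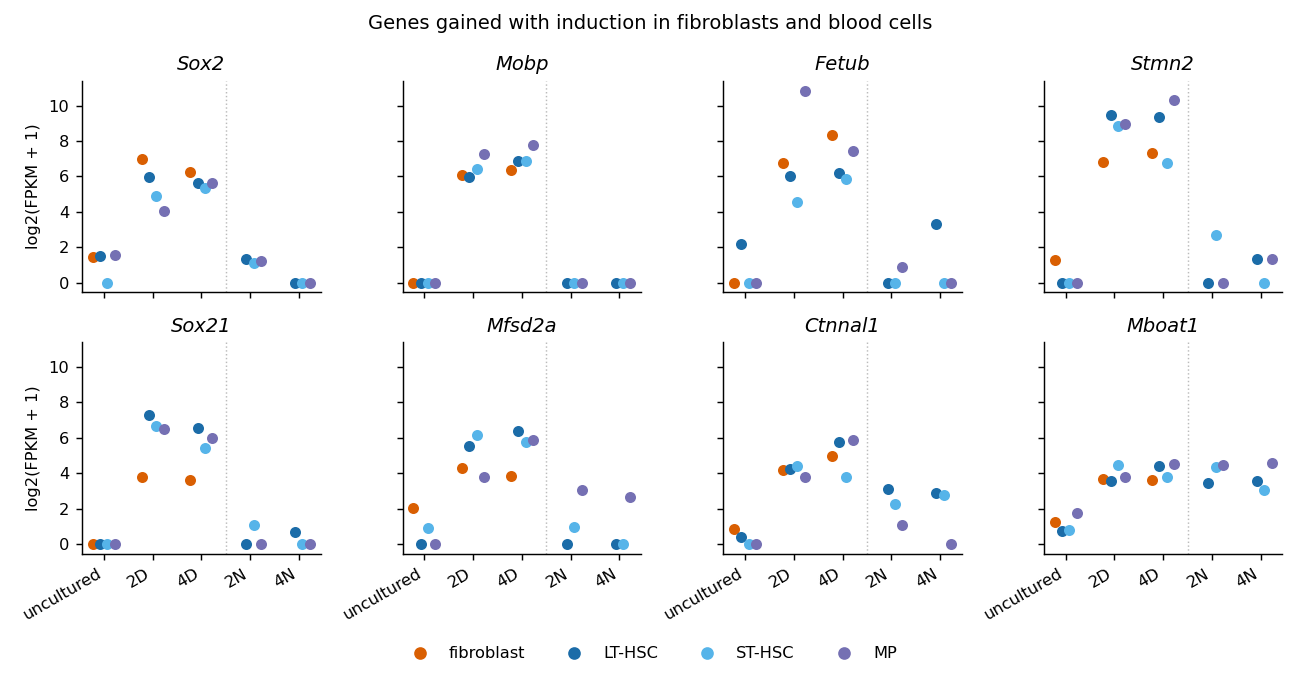
log2(FPKM + 1) of the 8 genes gained in both lineages, 1 point a library, for uncultured cells, induced cells (2D, 4D) and blood cells cultured without doxycycline (2N, 4N). Mobp sits at 0 outside the induced libraries, and Sox21 is lower in fibroblasts, at 12.7 and 10.99 FPKM, than in any induced blood library.

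Promoter windows of these genes were read from RefSeq (build GRCm38.p6, 250 bases before to 50 after the gene's start), which held 7 of the 8. The 150 bases before the start are shown for 4 of them, as examples chosen after the values were seen: both Sox genes, and Mobp and Fetub, whose windows hold few CG. Capitals mark every CG dinucleotide and, in Fetub, a TATAAA.
Mobp (chr9:120149592-120149741, plus strand): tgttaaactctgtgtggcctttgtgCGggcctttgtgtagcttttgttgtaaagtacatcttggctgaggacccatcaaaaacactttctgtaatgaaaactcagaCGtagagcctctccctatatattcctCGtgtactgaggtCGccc
Fetub (chr16:22918232-22918381, plus strand): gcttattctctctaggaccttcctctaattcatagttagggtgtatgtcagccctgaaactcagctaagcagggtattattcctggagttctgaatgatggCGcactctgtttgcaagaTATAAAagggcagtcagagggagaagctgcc
Sox21 (chr14:118237031-118237180, minus strand): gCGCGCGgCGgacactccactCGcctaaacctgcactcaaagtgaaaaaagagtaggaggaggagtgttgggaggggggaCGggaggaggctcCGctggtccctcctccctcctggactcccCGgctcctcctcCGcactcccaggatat
Sox2 (chr3:34649845-34649994, plus strand): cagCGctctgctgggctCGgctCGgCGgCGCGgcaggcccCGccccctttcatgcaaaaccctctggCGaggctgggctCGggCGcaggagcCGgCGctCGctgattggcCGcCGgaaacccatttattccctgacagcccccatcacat

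The 4 windows were not alike, and that of Sox2 belongs to the mouse's own gene, not to the inserted copy. The shown stretch held 15 CG dinucleotides in Sox2 and 9 in Sox21, but 4 in Mobp and 1 in Fetub. Over the whole window the ratio of observed to chance CG was 0.82 in Sox2, 0.69 in Sox21, 0.36 in Mobp and 0.27 in Fetub, beside a median of 0.77 over the 9803 windows of tested protein-coding genes. TATAAA, searched on both strands, was in 6.89% of those windows and in 1 of the 7 gained windows, that of Fetub, where it began 31 bases before the start. Other motifs, searched on both strands, were in none of the 7. They were TGANTCA for AP-1, found in 4.77% of all windows. For PU.1 the letters were GAGGAAGT, found in 3.07%. For GATA factors they were AGATAAG, found in 1.61%. For Oct factors they were ATTTGCAT, found in 1.44%. For Sox factors they were CATTGTT, found in 1.91%. The last 2 motifs were chosen after the data were seen, and a match or its lack describes these letters only.

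The 4 factors themselves were at FPKM 10 or more in both induced fibroblast libraries. In induced blood the lowest values of Pou5f1 and Klf4 were under 1. Reads from the inserted copies and from the mouse's own genes cannot be told apart in these values. Pou5f1 was at 29.2 and 23.4 FPKM in induced fibroblasts and at 0 to 2.34 in induced blood, and it was listed at 0 in all uncultured libraries. The groups did not overlap and Pou5f1 was higher in fibroblasts (log2 difference 3.94 ± 0.70 SE, limma adjusted p = 0.00372). Sox2 was at 124 and 74.2 in fibroblasts and at 15.6 to 61.3 in blood, with a log2 difference of 1.35 ± 0.49 that did not pass (adjusted p = 0.0698). Klf4 was at 42.7 and 15.1 against 0.704 to 11.2 (2.06 ± 0.80, adjusted p = 0.0834). Uncultured LT-HSC and ST-HSC held more Klf4 than any induced library, at 214 and 240. Myc was at 305 and 173 against 45.5 to 189, and its groups overlapped (1.33 ± 0.47, adjusted p = 0.0633). Under TPM scaling, in which every library has the same sum, 3 of the 4 factors were called higher in fibroblasts.

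Genes shared at high level were defined as FPKM 100 or more in every induced library. There were 479: 415 protein coding, 52 pseudogenes, 4 small RNAs and 8 of other or unmatched class. Many were genes of energy supply and protein handling. The respiratory chain and ATP synthase had 33 of 54 listed genes among them, chaperones and proteasome 22 of 39, translation factors 12 of 28 and cytosolic ribosomal proteins 13 of 75. Collagens, matrix proteins, pan-leukocyte genes and blood transcription factors had none. Cops5, Hprt and Aes lay just inside the limit, with minima of 100.4, 100.5 and 100.7, and Mrpl17, Bud31 and Ola1 just outside, at 99.9, 99.4 and 99.4. With a limit of 50 there were 1140 genes and with 200 there were 173.

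Most shared genes were also at 100 or more in every uncultured library, which does not show that their levels were unchanged. In the libraries the rule did not use, 285 of the 479 were also at 100 or more in all 4 uncultured libraries, 423 in all 6 blood libraries cultured without doxycycline and 267 in all 18 libraries. In 61 of them, Fib_0 was the only uncultured library below the limit. The 20 highest minima belonged to 15 protein-coding genes, 3 pseudogenes, 1 small RNA and 1 unmatched entry. Among the protein-coding ones were mitochondrial transcripts, genes of translation and ATP synthesis, and a chaperone. mt-Cytb, a subunit of complex III, was at 8503 and 10327 FPKM in induced fibroblasts and at 3776 to 6308 in induced blood. Gnb2l1, which encodes the ribosomal scaffold RACK1, was at 2517 and 3233 against 11567 to 18761. Atp5b, the beta subunit of ATP synthase, was at 1829.9 and 1953 against 3305 to 6981. Hsp90ab1, a cytosolic chaperone, was at 8386 and 5450.1 against 1366 to 2422. Rpl22 was the closest to equal of these, at 859 and 1052 against 858 to 1103 (log2 difference -0.10 ± 0.18, adjusted p = 0.697). Vim, an intermediate filament often used as a mesenchymal marker, was also shared, at 782 and 1094 against 813 to 2732, and its groups overlapped (adjusted p = 0.308).

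A high level in both lineages did not mean an equal level. Of all 12691 genes tested between the lineages, with limma on log2(FPKM + 1) and day as a block, 3739 were called at an adjusted p under 0.05 (29.5%). Of these, 2064 were higher in fibroblasts (16.3%) and 1675 lower (13.2%). Among the 479 shared genes 42 were higher in fibroblasts, 189 lower and 248 not called. The rule for shared genes set a lower limit in every library but no upper limit, so genes far apart between the lineages could still enter. Without Fib_4D 1352 genes were called in all and without Fib_2D 1460, and with 1 fibroblast library against 3 blood libraries day 4 alone gave 378 calls and day 2 alone none (3023 at an unadjusted p under 0.05, limma). TPM scaling turned the split of calls from 55.2% to 71.2% higher in fibroblasts. TPM scaling also moved the median log2 difference over all genes from 0.09 to 0.47, so differences are best read against that median.

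**Figure D3:**
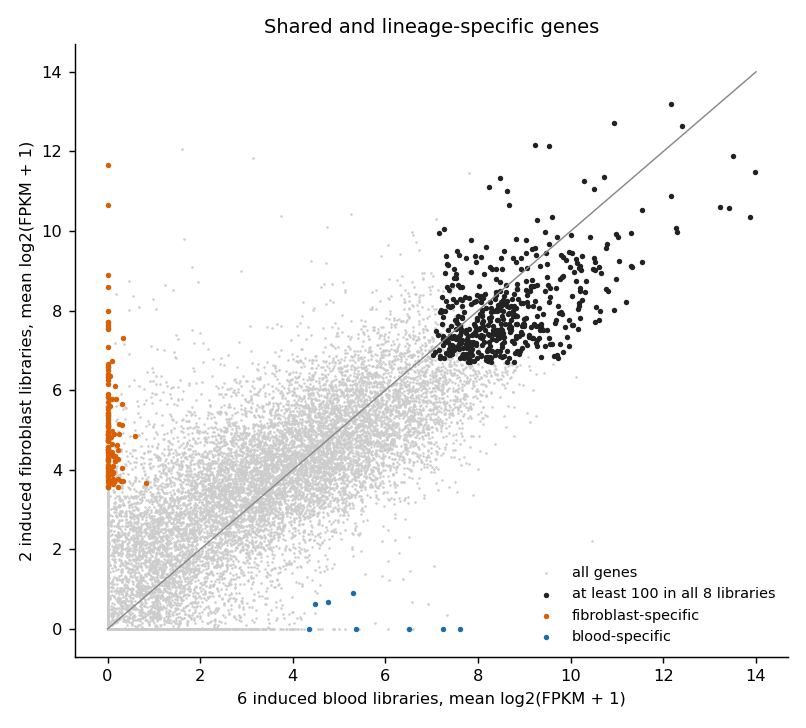
Mean log2(FPKM + 1) of each gene in the 6 induced blood libraries (x) and the 2 induced fibroblast libraries (y), with the 479 shared genes in black, 130 fibroblast-specific genes in orange and 8 blood-specific genes in blue. The line marks equal means. The counts of specific genes are not like for like, since the rule required 2 fibroblast but 6 blood libraries at FPKM 10 or more. Of the 130 fibroblast-specific genes 44 were small RNAs.

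Promoter windows were found for 341 of the 415 shared protein-coding genes (82.2%). Their median ratio of observed to chance CG was 0.84, beside 0.77 for all tested protein-coding genes, and TATAAA was in 8.50% of them, beside 6.89%. For the genes specific to a lineage the same check is void, because windows matched only 68.8% of the fibroblast-specific protein-coding genes and 3 of the 6 blood-specific ones.

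Fibroblast matrix genes were mostly higher in induced fibroblasts. Of the 14 collagen genes tested 11 were higher in induced fibroblasts (78.6%, beside 16.3% of all genes) and none lower. Of 30 matrix and remodelling genes 27 were higher (90.0%) and none lower. Their median log2 differences were 5.12 and 4.42, beside 0.09 over all genes tested. Genes listed at 0 in every induced blood library numbered 2 among the collagens and 5 among the matrix genes. Without genes listed at 0 throughout a lineage the medians were 4.89 and 4.42. Col1a1, a chain of type I collagen, was at 258 and 708 FPKM in Fib_2D and Fib_4D and at 0 to 1.10 in induced blood (log2 difference 8.29 ± 0.58, adjusted p = 8.39e-05). In uncultured fibroblasts it stood at 5436. Col3a1 was at 43.8 and 150, Col1a2 at 228 and 691, and uncultured fibroblasts held 986 and 3583. Serpinh1, the collagen chaperone of the endoplasmic reticulum, was at 244 and 436 against 0 to 2.79, and at 1960 in Fib_0. Postn, which encodes the matrix protein periostin, was at 12.5 and 124 and was listed at 0 in every induced blood library (adjusted p = 0.00104). These 5 genes were lower in both induced fibroblast libraries than in Fib_0, and higher than in every induced blood library. The nearest blood value was Col1a2 in MP_2D, at 32.3.

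Contractile and mesenchymal genes went the same way in smaller number. Of 18 contractile genes tested 10 were higher in fibroblasts (55.6%, beside 16.3% of all genes) and 1 lower. Of 24 mesenchymal factors and adhesion genes 15 were higher (62.5%) and none lower. The medians were 1.90 and 2.79. Acta2, smooth muscle actin, was at 196 and 339 FPKM against 0 to 1.87 (7.56 ± 0.63, adjusted p = 0.000153) and at 2996 in Fib_0. Twist1, a mesenchymal transcription factor, was at 30.8 and 25.7 against 0 to 3.09 (4.22 ± 0.77, adjusted p = 0.00408). Thy1, a surface marker of fibroblasts, was at 51.2 and 90.4 against 0 to 0.928, and Cdh2, N-cadherin, at 22.2 and 17.0 against 0 to 0.908. Of 18 fibroblast surface and secreted markers 11 were higher in fibroblasts (61.1%) and none lower.

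Genes still specific to fibroblasts were those at FPKM 10 or more in both induced fibroblast libraries and under 1 in all 6 induced blood libraries. There were 130: 77 protein coding, 44 small RNAs, 7 pseudogenes and 2 others. The uncultured fibroblast library, which the rule did not use, had 103 of them at 10 or more, 11 under 1 and 16 between. Among the 77 protein-coding genes 49 were lower in both induced libraries than in Fib_0 and 24 higher, and the median ratio to Fib_0 was 0.675. Of the 77, 64 were at 10 or more in Fib_0, so most were retained. These 64 held Ddx23 and Hnrnpa1, splicing genes that every cell uses, so they are not only genes of fibroblast identity. The 130 included 5 of 18 collagens and 7 of 36 matrix genes. In uncultured blood, 98 of the 130 were also under 1 in all 3 libraries, and 104 were under 1 in all 6 blood libraries cultured without doxycycline.

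Several of the specific genes were transcription factors of position and mesenchyme, singled out here after their values were seen. Hoxc6 was at 38.8 and 52.6 FPKM in Fib_2D and Fib_4D and at 25.0 in Fib_0, Hoxc4 at 23.5 and 19.8 beside 7.76, Hoxc8 at 12.1 and 16.9 beside 20.9, and Hoxc9 at 15.9 and 15.9 beside 9.40. All 4 were listed at 0 in all 15 blood libraries. Shox2, a limb homeobox gene, was at 23.7 and 34.7 beside 38.8 in Fib_0, and Tbx15, a T-box factor, at 34.3 and 42.5 beside 56.9. Of these 6 genes Hoxc4, Hoxc6 and Hoxc9 were higher in both induced fibroblast libraries than in Fib_0, and Hoxc8, Shox2 and Tbx15 were lower. Crabp1, which binds retinoic acid, was at 250 and 259, and at 549 in Fib_0, and was listed at 0 in every blood library. Cdkn2a, the Ink4a/Arf locus that restrains division and reprogramming, was at 32.3 and 67.4 beside 12.8 in Fib_0. It was listed at 0 in all induced and uncultured blood libraries (limma adjusted p = 0.000183 between the induced lineages). The rule had already picked Cdkn2a by these induced libraries, so its p-value adds no support. Only 2 of the 11 genes gained from Fib_0 were protein coding. Robo2, an axon guidance receptor, was at 10.3 and 31.4 beside 0.555 in Fib_0, and Lyrm7, a complex III assembly factor, at 11.9 and 13.4 beside 0.658.

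Genes specific to blood by the mirrored rule were few: 8, of which 6 were protein coding (AI467606, Elmo1, Lrmp, Mfng, Rpgrip1, Sigirr) and 2 of other class (AI662270, D630008O14Rik). All 8 were at 10 or more in every uncultured blood library, and all 8 were under 1 in Fib_0. Mfng, a glycosyltransferase that modifies Notch receptors, was at 119, 219 and 226 FPKM in LT-HSC, ST-HSC and MP at day 2 and at 95.5, 149 and 138 at day 4. It was listed at 0 in both induced fibroblast libraries and in Fib_0 (limma adjusted p = 1.5e-05 between the induced lineages). The rule had already picked Mfng by these induced libraries, so its p-value adds no support. Lrmp, a lymphoid membrane protein, was at 28.5 to 284 in induced blood and listed at 0 in fibroblasts. Elmo1, a scaffold for Rac activation, was at 11.6 to 83.2 against 0.679 and 0.509, and Sigirr, a receptor that damps interleukin-1 signalling, at 13.3 to 40.4 against 0.413 and 0.691. None of the 34 pan-leukocyte genes was on this list.

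The small number turned on which blood libraries were required. A single ST-HSC library had 347 genes (2D) or 263 (4D) at 10 or more that were under 1 in both induced fibroblast libraries. LT-HSC_2D had 148, MP_2D 137, LT-HSC_4D 88 and MP_4D 84. Both ST-HSC libraries together had 178, of which 19 were pan-leukocyte genes, while both LT-HSC libraries had 27 and both MP libraries 30. The 3 uncultured blood libraries shared 224 such genes and the 6 libraries cultured without doxycycline 133, with 25 and 20 pan-leukocyte genes among them. With LT-HSC_4D and MP_4D left out the blood-specific count was 40, without MP_4D 15 and without Fib_4D 16. The fibroblast-specific count was 169 without LT-HSC_4D and MP_4D.

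Pan-leukocyte genes were spread widely between blood libraries. Of 31 tested, 5 were lower in fibroblasts and 1 higher, with a median log2 difference of -2.52, and 22 of the 31 were listed at 0 in both induced fibroblast libraries. The share called was 6 of 31, which is below the 29.5% over all genes. Coro1a, an actin regulator of leukocytes, was at 202 FPKM in LT-HSC_2D, 2254 in ST-HSC_2D, 124 in MP_2D, 24.9 in LT-HSC_4D, 1907 in ST-HSC_4D and 5.40 in MP_4D, and at 0.632 and 0 in fibroblasts (log2 difference -6.99 ± 1.90, adjusted p = 0.0238). The ST-HSC libraries were the high ones on both days. Srgn, a granule proteoglycan, was at 1.80 in MP_4D and 542 in ST-HSC_2D and listed at 0 in fibroblasts (adjusted p = 0.0137). Ptprc, which encodes CD45, was at 55.9 and 22.0 in ST-HSC, at 2.47 and 6.70 in LT-HSC_2D and MP_2D, and listed at 0 in LT-HSC_4D, MP_4D and both fibroblast libraries. It did not pass (adjusted p = 0.21). Cd44, an adhesion receptor used by both lineages, was the member higher in fibroblasts, at 101 and 77.5 against 24.1 to 51.3 (1.35 ± 0.34, adjusted p = 0.0164).

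Of 28 blood transcription factors tested, 5 were lower in fibroblasts (Hhex, Tal1, Ikzf1, Mecom and Gfi1) and 3 higher. The 28.6% called is near the 29.5% over all genes, so the count says nothing about these factors as a group. Tal1, a stem cell factor of the basic helix-loop-helix family, was at 35.4, 24.0 and 22.0 FPKM at day 2 and at 20.6, 18.7 and 6.46 at day 4 in LT-HSC, ST-HSC and MP, and was listed at 0 in fibroblasts (adjusted p = 0.000685). Uncultured LT-HSC, ST-HSC and MP held Tal1 at 32.4, 3.94 and 18.7. Ikzf1, the lymphoid factor Ikaros, was at 2.26 to 30.2 and listed at 0 in fibroblasts (adjusted p = 0.0105). Cebpb, a factor shared by myeloid and mesenchymal cells, was higher in fibroblasts, at 6.37 and 10.03 against 0 to 0.813 (3.03 ± 0.54, adjusted p = 0.00372). Of 20 myeloid granule and differentiation genes 3 were lower in fibroblasts, a share near the 13.2% of all genes, and 1 higher.

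Antigen presentation genes were lower in fibroblasts in 5 of 18 tested and higher in none, with a median of -1.79. The 27.8% called is near the 29.5% over all genes, while all 5 calls lay in 1 direction. H2-K1, a class I heavy chain, was at 18.1 and 31.8 FPKM against 167 to 739 (-3.71 ± 0.63, adjusted p = 0.00309), and near-identical class I genes can share its reads. B2m, the class I light chain, was at 235 and 293 against 365 to 2958 (-2.12 ± 0.51, adjusted p = 0.0135). Psmb8, an immunoproteasome subunit, was at 0 and 1.34 against 13.6 to 449. Uncultured cells showed the same order, with H2-K1 at 38.0 in Fib_0 and 658 to 2051 in blood.

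Some genes listed at 0 in most or all uncultured libraries were present in induced blood at levels the fibroblasts did not reach. Hbb-y, the embryonic beta-like globin, was listed at 0 in all 4 uncultured libraries. It was at 2707, 6887 and 2556 FPKM at day 2 and at 63.1, 3032 and 836 at day 4 in LT-HSC, ST-HSC and MP, and at 5.63 and 2.25 in fibroblasts. The groups did not overlap (log2 difference -8.24 ± 1.19, adjusted p = 0.00146). In blood without doxycycline Hbb-y reached 17.6. Helt, a transcription factor of neural development, was at 28.03 to 190 in induced blood against 0.839 and 2.07 in fibroblasts (-5.14 ± 0.64, adjusted p = 0.000743), and listed at 0 in uncultured cells. Npy, neuropeptide Y, was at 29.6 to 243 against 11.1 and 6.58 (-2.92 ± 0.66, adjusted p = 0.0105), and among uncultured libraries it was at 16.0 in LT-HSC_0 and listed at 0 in the other 3. Sox21 was lower in fibroblasts too (-2.71 ± 0.37, adjusted p = 0.00114). For Hbb-y, Helt and Sox21, at 0 in every uncultured library, the interaction with induction is the same difference with another error, and it did not pass (adjusted p = 0.116, 0.0741 and 0.169). Of 22 neural genes tested 5 were higher in fibroblasts (22.7%, beside 16.3% of all genes) and 4 lower (18.2%, beside 13.2%). Gap43, a growth cone protein, was at 7.65 and 59.7 in fibroblasts and listed at 0 in induced blood. The neural list had a median log2 difference of -0.61 between the induced lineages, but before culture it was higher in fibroblasts. It summed to 387 FPKM in Fib_0 and to 34.2 to 48.2 in uncultured blood, and its median log2 difference there was 3.19.

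Genes of protein synthesis and energy supply were often lower in fibroblasts. Of 72 cytosolic ribosomal protein genes 28 were lower (38.9%, beside 13.2% of all genes) and 3 higher (4.17%, beside 16.3%). Their median was -0.76, beside 0.09 over all genes. Of 53 respiratory chain and ATP synthase genes 28 were lower (52.8%) and 5 higher (9.43%), with a median of -0.99. Both induced medians were below 0 under every scaling tried, -0.42 and -0.62 under TPM. In uncultured libraries the medians of these lists were -1.67 and -0.65, so both were below 0 before induction too. Ndufa10, a complex I subunit, was at 55.7 and 66.0 against 331 to 544 (-2.80 ± 0.21, adjusted p = 9.85e-05). Ribosomal protein genes have many near-identical pseudogene copies, and single values are uncertain where reads could be split between them. Of 28 translation factors 6 were higher and 9 lower (21.4% and 32.1%).

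Chaperone and proteasome genes went both ways. Of 39, 9 were higher and 14 lower in fibroblasts (23.1% and 35.9%, beside 16.3% and 13.2% of all genes). Chaperones of the endoplasmic reticulum were among the higher ones: Pdia3, a disulphide isomerase, at 381 and 458 FPKM against 20.3 to 43.6 (3.62 ± 0.34, adjusted p = 0.000218), Canx at 1032 and 874 against 58.5 to 142, and Calr at 948 and 1038 against 104 to 196. Proteasome subunits Psmb4 and Psma6 were lower, at 507 and 602 against 1958 to 2852 and at 286 and 271 against 939 to 1558. Glycolytic genes were higher in 6 of 16 (37.5%, beside 16.3% of all genes) and lower in none. Gapdh, itself a glycolytic enzyme, was near 0 in some induced blood libraries though every cell uses it. Such a count may therefore hold genes whose low values do not mean low expression. Tpi1 was at 240 and 402 against 48.4 to 96.7 (2.22 ± 0.35, adjusted p = 0.00221). Cholesterol synthesis genes were higher in 1 and lower in 4 of 18 (27.8% called, near the 29.5% of all genes), with a median of 0.01 that was -0.09 under quantile normalization and -0.20 with transcript length removed.

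**Figure D4:**
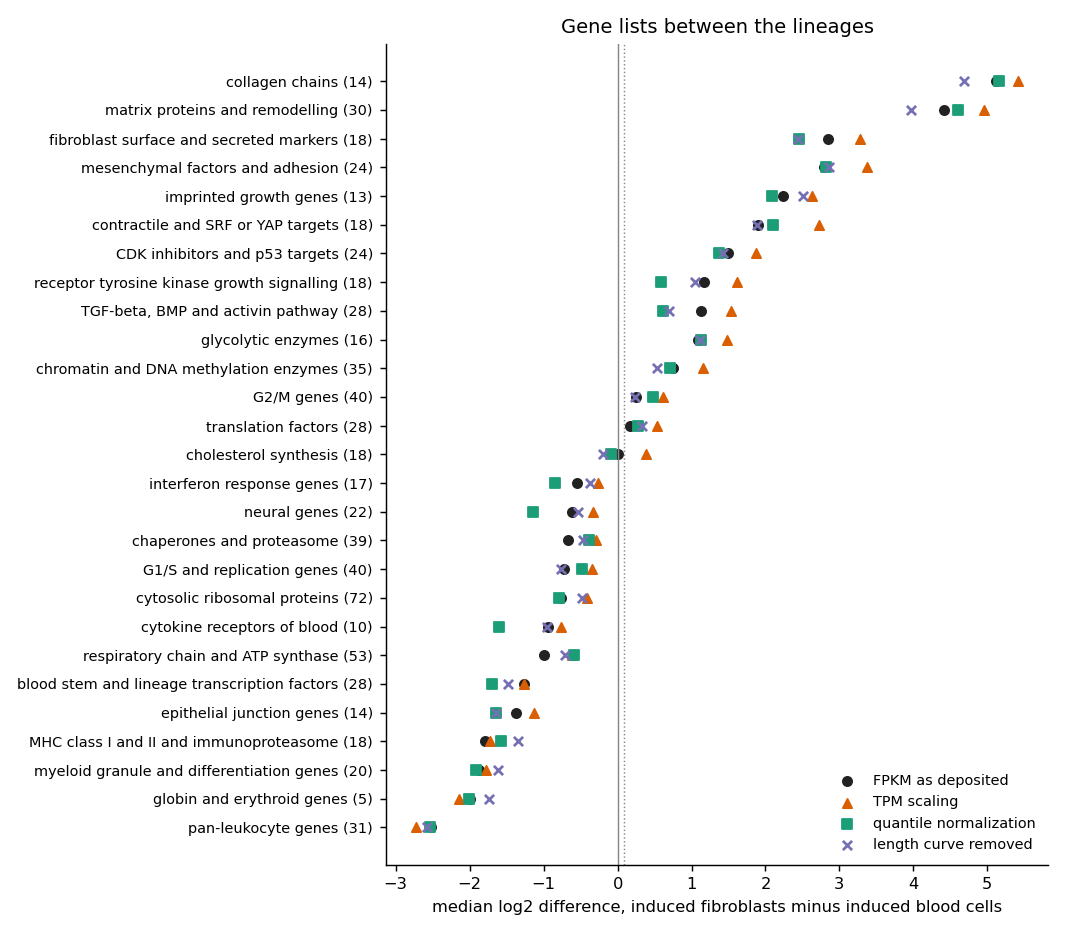
Median log2 difference, induced fibroblasts minus induced blood cells, of the tested members of each list (number in brackets) under 4 scalings, with a solid line at 0 and a dotted line at 0.09, the median over all genes. Collagens and matrix genes lie at 5.12 and 4.42 and pan-leukocyte genes at -2.52, and cholesterol synthesis changes sign with the scaling.

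Of 40 G1/S and replication genes of the cell cycle 5 were higher and 16 lower in fibroblasts (12.5% and 40.0%, median -0.72). Of 40 G2/M genes 8 were higher and 7 lower (20.0% and 17.5%, median 0.25), near the 16.3% and 13.2% of all genes. Ccnd1, cyclin D1, was at 107 and 99.9 FPKM against 0 to 14.9 (4.64 ± 1.12, adjusted p = 0.0141), and Ccnd3, cyclin D3, ran the other way, at 36.7 and 31.3 against 87.5 to 264 (-2.11 ± 0.35, adjusted p = 0.00259). Ube2c, a ubiquitin-conjugating enzyme of mitotic exit, was at 55.2 and 39.8 against 310 to 737 (-3.20 ± 0.32, adjusted p = 0.000305). Mki67, the proliferation antigen, was at 65.7 and 57.6 against 10.1 to 21.0 (2.04 ± 0.38, adjusted p = 0.00438). Of 24 cell cycle inhibitors and p53 targets 8 were higher (33.3%) and 1 lower.

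Of 28 signalling genes of the TGF-beta, BMP and activin pathway 10 were higher in fibroblasts and 3 lower, so 46.4% were called beside 29.5% of all genes. Among the ligands Inhba, an activin subunit, was at 9.05 and 17.5 FPKM and listed at 0 in induced blood (adjusted p = 0.00104), and Tgfb3 was at 9.20 and 12.2 against 0 to 1.69 (3.23 ± 0.59, adjusted p = 0.00419). Among the receptors Bmpr2 was at 15.6 and 15.4 against 0 to 5.80. Among the targets Id1 and Id3, which BMP signals induce, were lower in fibroblasts: Id1 at 6.60 and 14.6 against 95.4 to 377 (-4.10 ± 0.54, adjusted p = 0.00101) and Id3 at 17.98 and 42.6 against 288 to 757 (-3.94 ± 0.47, adjusted p = 0.000669). Of 18 receptor tyrosine kinase genes 6 were higher and 1 lower (38.9% called), with Egfr at 13.7 and 13.3 and listed at 0 in induced blood, and Fgfr3 at 0.722 and 0.821 against 3.43 to 30.2. Of 35 chromatin and DNA methylation genes 13 were higher and 2 lower (42.9% called). Chd4, a remodeller of the NuRD complex, was at 364 and 263 against 21.6 to 35.4 (3.47 ± 0.28, adjusted p = 0.000137), while Mbd3 of the same complex was at 100 and 71.0 against 179 to 590 (-2.21 ± 0.42, adjusted p = 0.00489). Of 13 imprinted growth genes 5 were higher and none lower (38.5% called), with Peg3 at 35.6 and 32.4 against 0 to 0.672.

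Small RNAs and transcript length also moved with these results, and their part in them was not tested. Small RNAs were higher in fibroblasts in 66 of 128 tested and lower in 3, beside 16.3% and 13.2% of all genes. Their median log2 difference was 3.57, and 56 of the 128 were listed at 0 in every induced blood library. Y_RNA.6 was at 2977 and 3461 FPKM in induced fibroblasts and 3316 in Fib_0, and listed at 0 in all induced and uncultured blood libraries. Genes with transcripts of 4000 bases or more had a median difference of 0.96 and those of 500 to 1000 bases -0.14. In uncultured libraries the same bins gave 1.05 and -0.13. Some genes that every cell uses were near 0 in 1 lineage: Ddx23, a splicing helicase, was at 186 and 133 against 0 to 0.537 and at 106 in Fib_0, and Hnrnpa1, a splicing factor, was at 40.6 and 28.2 and listed at 0 in induced blood. Gapdh, which every cell uses, was at 22.6 and 21.6 against 0 to 4.25, so a low value need not mean low expression. The reverse occurred too: Mrpl44, a mitochondrial ribosomal protein gene, was at 0.104 and 0.110 in induced fibroblasts and 0.0322 in Fib_0, at 0.205 in ST-HSC_2D and at 66.5 to 180 in the other 5 induced blood libraries. With a smooth curve on transcript length removed, 3453 genes were called.

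The distance between the lineages was counted as genes with a 4-fold or larger difference on log2(FPKM + 1) between 2 libraries of the same day. Before culture the fibroblast library differed from LT-HSC, ST-HSC and MP in 4874, 4966 and 4516 genes (36.2%, 37.0% and 33.7% of genes at FPKM 1 or more in either). At 2D the counts were 3210, 4128 and 3025 (24.6%, 31.2% and 23.3%) and at 4D 3053, 3490 and 3260 (23.3%, 25.7% and 24.7%). For each blood type both induced counts were lower than the uncultured one. Blood types also differed less from each other, by 2362 to 2713 genes before culture, 1445 to 1849 at 2D and 1116 to 1545 at 4D. ST-HSC stayed farthest from fibroblasts on both induced days. Across genes, which are not independent and share library depth and transcript length, Pearson's r between fibroblasts and the blood types was 0.414 to 0.461 before culture, 0.556 to 0.668 at 2D and 0.636 to 0.696 at 4D.

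**Figure D5:**
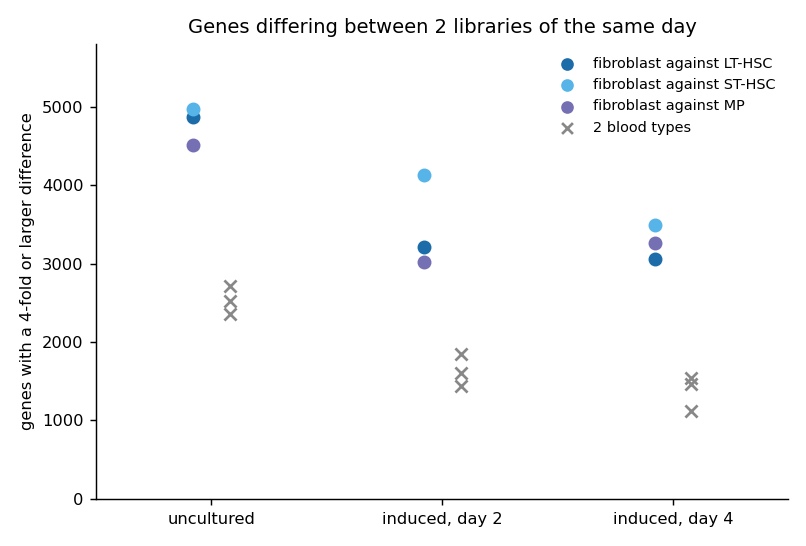
Number of genes with a 4-fold or larger difference between 2 libraries of the same day, for fibroblasts against each blood type (circles) and between blood types (crosses). The fibroblast counts lie between 4516 and 4966 before culture and between 3025 and 4128 with induction.

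Whether the lineage difference itself changed with induction was tested in 12 libraries, uncultured and induced, with cell type as a block. A method effect that is constant on the log scale would cancel in this contrast, apart from the 1 added to FPKM. It passed in 125 of 13235 genes (0.944%), 56 positive (0.423%) and 69 negative (0.521%). The positive ones with the largest values were high in uncultured blood: Nkg7, Gm10196 (a pseudogene), Pygl, Cd37 and Cd14. Gm10196 was of another kind: it stayed present in induced blood, was listed at 0 in Fib_0 and was present in induced fibroblasts. Nkg7, a cytotoxic granule protein, was at 624, 197 and 865 FPKM in LT-HSC_0, ST-HSC_0 and MP_0, and in induced blood it was listed at 0 except for 2.92 in MP_2D (interaction adjusted p = 0.0141). Cd37, a leukocyte tetraspanin, was at 308 to 436 before culture and at 0 to 3.59 with induction, and Cd14 at 159 to 542 and then 0 to 4.91. In blood cultured without doxycycline Nkg7 was at 2.33 to 371, Cd37 at 24.3 to 255 and Cd14 at 2.59 to 69.1. Pygl, glycogen phosphorylase, was at 25.2 to 103 in uncultured blood, at 0 to 1.504 in induced blood and at 6.01 and 13.4 in induced fibroblasts.

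The negative ones with the largest values were high in Fib_0. Ptn, the secreted growth factor pleiotrophin, was at 1603 FPKM in Fib_0 and at 2.40 and 10.5 with induction (interaction adjusted p = 0.0186). H19, an imprinted non-coding RNA, was at 1433 in Fib_0 and at 0.805 and 1.67 with induction. Mir675, the miRNA hosted by H19, and Snord104 were at 201 and 451 in Fib_0 and listed at 0 in all induced libraries. Timp1, an inhibitor of matrix proteases, was at 479 in Fib_0 and at 40.0 and 93.7 with induction, and in blood it was listed at 0 before culture and at 14.2 to 168 with induction (interaction adjusted p = 0.0151). The fibroblast start was a single library, and the count depended on others too: it was 52 without LT-HSC_0, 210 without ST-HSC_0, 63 without LT-HSC_2D, 79 without MP_2D, 69 without LT-HSC_4D and 33 without MP_4D. No gene passed without Fib_2D or without Fib_4D (1032 and 1101 at an unadjusted p under 0.05, limma), and 11 passed without LT-HSC_4D and MP_4D.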

How the data were processed

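RNA of 18 mouse libraries was deposited as FPKM, 1 value per gene and library. Per the submitters' processing notes the authors used TopHat and Cufflinks on genome build mm9. Depth is unknown, and tool versions and annotation were not given in the sources used here. In all, 36818 entries and 36655 symbols were listed, of which 17955 were above 0. The 158 symbols on several entries were summed. No common step was found in the low values, so reads could not be recovered. Samples were grouped by title. The doxycycline field conflicts with the titles of the N libraries, and the titles were used.

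Values were log2(FPKM + 1), with the 1 added lowering differences near 0. The test was limma 3.58.1 in R 4.3.3, run on genes whose FPKM averaged 1 or more over the libraries compared (trend and robust options, two-sided), with Benjamini-Hochberg adjustment over all genes tested and a threshold of 0.05. The lineage fit had day as a block and 5 residual degrees of freedom, and single libraries of different types and days served as replicates. The scripts were tested on simulated data. Members, gene lists and rules were chosen with earlier results of these data known. Named genes were the 15 largest differences each way among called genes without overlap, the 20 highest minima, the 5 largest interactions each way, the 4 factors, up to 6 members of each list and the 6 highest specific genes; not all are described. Others were named after their values were seen: the genes gained or lost in both lineages, the Hoxc genes, Shox2, Lyrm7, Sigirr, Ptprc, Ddx23, Hnrnpa1 and Mrpl44. Alternatives were other added values, filters, scalings, blocks and libraries. Transcript lengths and classes came from GENCODE M21, with lengths for 95.4% of symbols above 0. This annotation is not on mm9, so no gene coordinates are given apart from those of the RefSeq windows. Tables and figures used Python 3.11.15, pandas 2.3.3, numpy 2.4.6 and matplotlib 3.10.9.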

Additional observations from a re-analysis of the deposited data

Results flagged for a closer look

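The change from uncultured to induced cells differed between fibroblasts and blood cells, by the interaction term of the limma fit, in 125 of 13235 genes. The named genes with the largest positive interaction were Nkg7 (8.56), Gm10196 (7.85), Pygl (7.53), Cd37 (7.53) and Cd14 (6.87), on the log2(FPKM + 1) scale. Gm10196, a pseudogene, was at 217 to 296 FPKM in uncultured blood, at 47.8 to 404 in induced blood, at 0 in Fib_0 and at 94.6 and 116 in induced fibroblasts. The largest negative ones were Snord104 (-8.82), Ptn (-8.63), H19 (-8.42), Timp1 (-8.24) and Mir675 (-7.66). Apart from Pygl and Cd14, each of these genes was listed at 0 throughout a group, so its fitted value depends on the 1 added and is no fold or bound. Both induced fibroblast libraries share the single uncultured fibroblast library as their start.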

How the results depend on the processing

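No paired analysis was possible because every labelled group is 1 library; day was the block, and without it 3740 genes were called. The lineage count of 3739 was 1314 with the mean over both days per cell type, 378 at day 4 alone and 0 at day 2 alone (3023 at an unadjusted p under 0.05), and 1352 to 3716 with 1 library left out; other settings gave 2930 to 4219. The interaction count of 125 was 60 with 0.1 added, 331 with 5 added, 555 with no filter, and 0 to 210 with 1 library left out. Settings chosen after seeing the data gave 64 for protein-coding genes only and 11 with neither LT-HSC_4D nor MP_4D. The 479 shared genes became 1140 at FPKM 50, 173 at 200, 832 under TPM scaling and 484 to 511 with 1 library left out. The 130 fibroblast-specific genes became 221 at 5 and 65 at 20 against under 1, 77 for protein-coding genes only and 130 to 193 with 1 library left out. The 8 blood-specific genes became 18 at 5, 4 at 20, 40 with neither LT-HSC_4D nor MP_4D and 9 to 16 with 1 library left out.

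The mean distance over 3 blood types, 4785, 3454 and 3268 genes at days 0, 2D and 4D, was 2475, 1374 and 1218 at 8-fold and 2380, 1516 and 1352 with 5 added. Of 205 named genes tested 183 were called, and none of these changed sign in any setting run. Many were named because their difference was large and called in these libraries, so a kept sign was likely beforehand and adds no support. Calls lost numbered 183 at day 2 alone, 119 at day 4 alone, 65 with the mean over both days, 65 without Fib_2D, 64 without Fib_4D and at most 15 in each other setting.

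List medians changed sign as follows. Neural genes were -0.95 to 0.10 with 1 library left out, positive without Fib_2D, and 0.46 with no MP libraries. Interferon response genes were 0.37 at day 4 and -1.37 to 0.17 with 1 library left out, positive without Fib_2D. Translation factors were -0.10 at day 4 and -0.10 (without Fib_2D) to 0.40 with 1 library left out. Cholesterol synthesis was -0.09 with quantile normalization, -0.20 with transcript length removed, -0.20 at day 4, -0.20 (without Fib_2D) to 0.22 with 1 library left out, below 0 also without LT-HSC_2D (-0.06), -0.02 with no LT-HSC libraries and -0.02 with no ST-HSC libraries. Macrophage markers were 0.75 with 0.1 added, 0.28 under TPM, 0.15 with length removed and -1.82 to 0.17 with 1 library left out, positive without ST-HSC_4D (0.17) and without MP_4D (0.14). The cause of these changes was not tested. Depth is unknown, so what it limits could not be measured.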
